A study of Rattus norvegicus with 20 samples.

Results

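The 10 genes described here make, load, break down and receive the inhibitory transmitter GABA and set the chloride gradient on which it acts. They are Gad1, Gad2, Slc32a1, Abat, Gphn, Nlgn2, Slc12a5, Slc12a2, Gabbr1 and Gabbr2, taken by symbol from the 14217 genes that the array's annotation names with a single symbol. The annotation pairs them with 19 probe sets, and the value given for a gene is that of its main probe set, the one with the highest mean over all 20 arrays, with the others beside it. All 10 main probe sets and 5 of the 9 others passed the filter on low values (mean log2 above 7.14).

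RNA came from the central nucleus of the amygdala. The animals were alcohol-preferring (P) rats, selected over generations for drinking ethanol by choice, and each had 1 Affymetrix array. The ethanol group, 10 animals, had access to ethanol at 15% and 30% during adolescence, and the water group, 10 animals of the same line, had water only. The sources used here do not give exact age or sex, and since every animal is of the P line the values do not describe other rats. The comparison asks which transcripts of this inhibitory toolkit differ after adolescent drinking, and how the genes vary together from animal to animal.

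GABA is made from glutamate by glutamate decarboxylase and packed into vesicles by a single vesicular transporter. It opens chloride channels of the GABA-A type, which the scaffold gephyrin holds at the synapse, and it acts more slowly through GABA-B receptors coupled to G proteins. Whether opening a chloride channel inhibits a cell depends on chloride export by KCC2 (Slc12a5) against chloride import by NKCC1 (Slc12a2). The central nucleus consists mainly of GABAergic neurons, and GABA release there is a known target of alcohol.

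The tissue label was checked against markers of central amygdala neurons. Of 10 such genes, 9 passed the filter, with mean log2 values in ethanol and water animals of 14.62 and 14.52 for Penk, 13.13 and 12.99 for Sst and 9.78 and 9.62 for Prkcd. Genes listed for excitatory cortical and basolateral neurons and for striatal medium spiny neurons were present too. Whether their signal came from inside or outside the central nucleus was not tested. Of 10 genes of excitatory cortical and basolateral neurons 6 passed the filter, among them Camk2a at 13.09 in ethanol and 12.98 in water animals, Nrn1 at 9.78 and 9.88 and the vesicular glutamate transporters Slc17a6 at 8.28 and 8.67 and Slc17a7 at 7.75 and 7.73. Their score ran from 8.51 to 10.13 in ethanol and from 8.33 to 10.32 in water animals. Of 10 genes of striatal medium spiny neurons 9 passed, among them Adora2a at 10.93 and 10.53 and Drd1 at 10.75 and 10.57.

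Ethanol animal 5 and water animals 15 and 18 stood apart, with a mean correlation to the other arrays under 0.990. Water animal 18 had the highest scores of all arrays for choroid plexus (11.88), meningeal (10.33) and myelin markers (12.94), where a score is the mean log2 value of the listed genes that passed the filter. In the 17 other arrays these scores ran from 6.43 to 11.17, from 7.75 to 9.34 and from 11.14 to 12.91. Its pan-neuronal score, 11.95, was below the 12.16 to 12.52 of the 17. Ethanol animal 5 also had a high choroid plexus score, 11.46. Among water animals, animal 18 was the lowest for Gad1, Gad2, Slc32a1, Nlgn2, Slc12a5 and Gabbr2 and the highest for Slc12a2, and results are therefore given with and without it where it matters.

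The 250 bases before the annotated start of the GABA-making and vesicle-loading genes and of the chloride transporters are printed from RefSeq, build GRCr8. All are on the plus strand, at chr3:75777202-75777451 for Gad1, chr17:89671468-89671717 for Gad2, chr3:167686995-167687244 for Slc32a1, chr3:174115583-174115832 for Slc12a5 and chr18:53546083-53546332 for Slc12a2. Capitals mark matches to a GC box (GGGCGG, or CCGCCC on the other strand) or a TATA box (TATAAA).
Gad1: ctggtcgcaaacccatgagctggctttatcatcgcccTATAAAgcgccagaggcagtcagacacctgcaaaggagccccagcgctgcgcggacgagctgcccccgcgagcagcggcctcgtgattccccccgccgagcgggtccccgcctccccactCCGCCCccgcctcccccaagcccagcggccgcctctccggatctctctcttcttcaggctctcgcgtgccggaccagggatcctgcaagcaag
Gad2: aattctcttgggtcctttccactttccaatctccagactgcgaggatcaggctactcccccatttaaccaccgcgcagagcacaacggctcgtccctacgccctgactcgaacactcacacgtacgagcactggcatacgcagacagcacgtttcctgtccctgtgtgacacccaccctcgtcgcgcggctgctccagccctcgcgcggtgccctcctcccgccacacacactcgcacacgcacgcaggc
Slc32a1: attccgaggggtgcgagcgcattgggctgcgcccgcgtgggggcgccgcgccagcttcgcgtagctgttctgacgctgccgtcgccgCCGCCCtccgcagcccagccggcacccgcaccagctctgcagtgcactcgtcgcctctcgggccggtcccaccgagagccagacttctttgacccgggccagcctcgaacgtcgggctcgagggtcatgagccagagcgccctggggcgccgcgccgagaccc
Slc12a5: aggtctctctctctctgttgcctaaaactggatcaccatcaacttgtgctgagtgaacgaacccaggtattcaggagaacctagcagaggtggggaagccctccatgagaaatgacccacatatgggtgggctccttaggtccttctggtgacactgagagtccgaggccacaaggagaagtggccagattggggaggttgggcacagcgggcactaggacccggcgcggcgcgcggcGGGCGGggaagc
Slc12a2: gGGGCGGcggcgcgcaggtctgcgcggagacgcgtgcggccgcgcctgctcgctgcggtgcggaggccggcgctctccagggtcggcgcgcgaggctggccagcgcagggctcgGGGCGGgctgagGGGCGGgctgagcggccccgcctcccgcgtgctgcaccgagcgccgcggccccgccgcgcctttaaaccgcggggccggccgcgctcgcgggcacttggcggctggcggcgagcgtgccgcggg

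The table of windows held 9 of the 10 genes, all but Abat. A GC box was found 3 times in the Slc12a2 window, once each in those of Gad1, Slc32a1 and Slc12a5, and not in that of Gad2. Of 33469 such windows in the annotation 30.5% hold a GC box. A match to TATAAA was found in the Gad1 window, in the part far from the annotated start, and 12.9% of all windows hold such a match at any position. The homeodomain core TAATTA (4.86% of all windows) and the CRE palindrome TGACGTCA (1.59%) were in none of the 9 windows, read on both strands. Guanine and cytosine made up 83.2% of the Slc12a2 window, 73.6% of Slc32a1, 68.4% of Gad1, 62.0% of Gad2 and 59.2% of Slc12a5, against a median of 51.2% over all windows.

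None of the 10 genes passed the test between ethanol and water animals. The test was limma with Benjamini-Hochberg adjustment over all 18625 probe sets that passed the filter, at an adjusted p of 0.05, which called 4 of them or 0.0215%. In 9 of the 10 genes the ethanol mean was higher, where 57.8% of all probe sets tested had a positive difference. The exception was Slc12a2. The median difference of the 10 genes, ethanol minus water, was 0.084 on the log2 scale, against 0.016 over all probe sets tested. At an unadjusted limma p under 0.05 there were 2 of the 10 genes, Gphn and Slc12a5, both higher with ethanol, against 12.8% of all probe sets tested, so this count is close to the background. By direction, 7.37% of all probe sets were higher and 5.48% lower at that unadjusted p, and 0.0107% were called in each direction. None of the 10 genes had groups that did not overlap, as 0.0268% of all probe sets did.

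**Figure D1:**
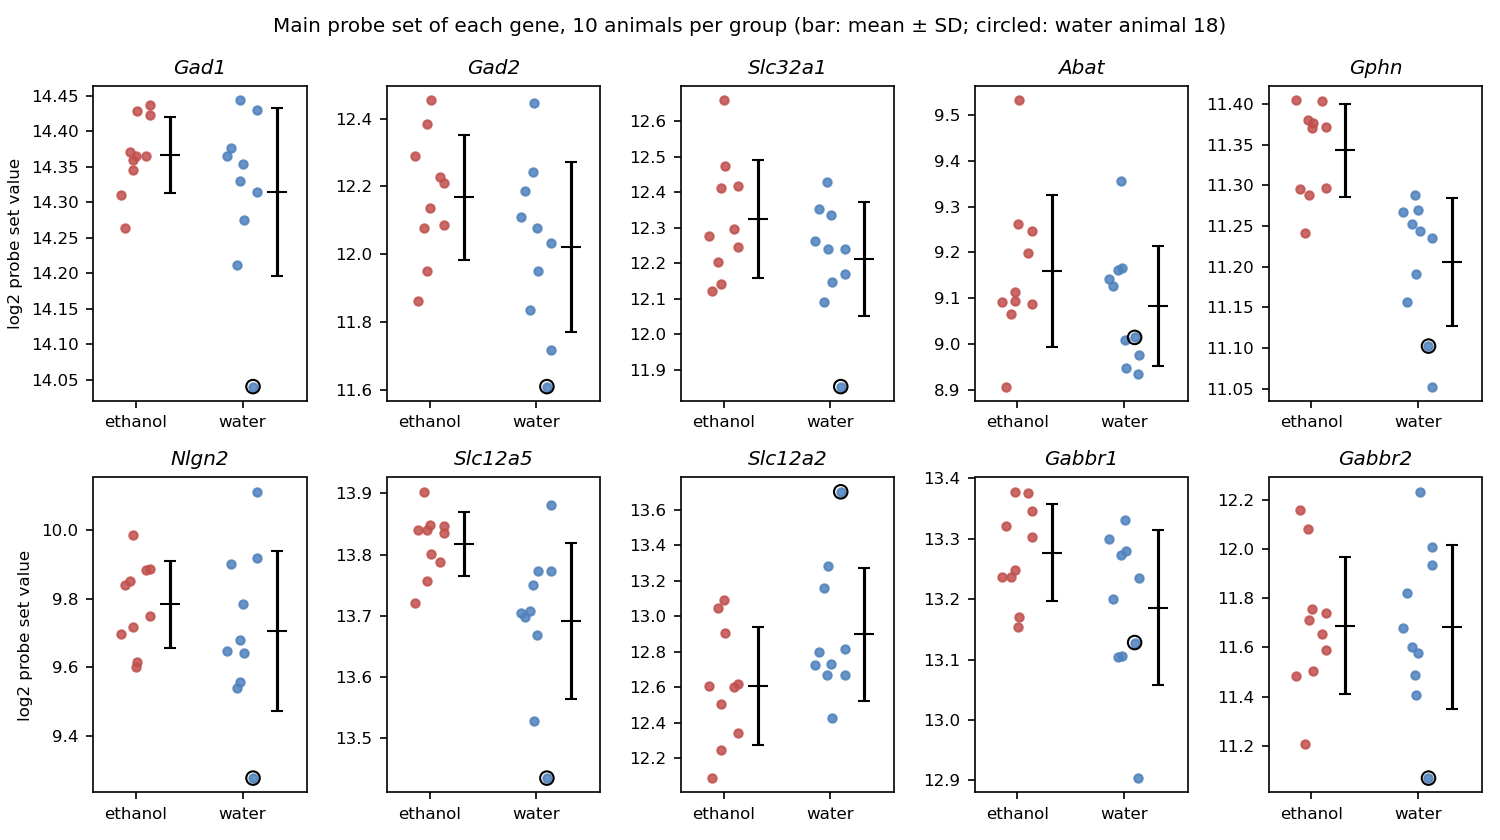
Log2 value of the main probe set of each of the 10 genes (vertical axis, its own range in each panel) in every ethanol animal (left, red) and water animal (right, blue), 10 per group, with mean and SD as bars and water animal 18 circled. For Gphn 8 of 10 ethanol animals sit above the highest water animal, while for Gabbr2 the groups cover the same range.

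Gphn encodes gephyrin, the scaffold that anchors GABA-A and glycine receptors, and had the smallest p of the 10 genes. In ethanol animals its log2 value was lowest at 11.24, had a median of 11.37 and reached 11.40, against 11.05, 11.24 and 11.29 in water animals. The groups overlapped little, since 8 of 10 ethanol animals were above the highest water animal and 10 of 10 were above the water mean. The means were 11.34 ± 0.057 and 11.21 ± 0.079 (SD, n = 10 each), a difference of 0.14 (SE 0.036), or 1.10-fold with a 95% interval of 1.04 to 1.16. It ranked 89 by p among the 18625 probe sets, with a limma adjusted p of 0.230, so it was not called. In the 3 consecutive runs of the accession order, which hold both groups in equal number and which no label calls a batch, the difference was 0.16, 0.12 and 0.13. Leaving out any single animal gave 0.12 to 0.15, with limma adjusted p-values of 0.153 to 0.382.

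Nlgn2 encodes neuroligin 2, the adhesion protein of inhibitory postsynaptic sites that binds gephyrin. Its values in ethanol animals ran from 9.60 through a median of 9.80 to 9.99, within the water range of 9.28 through 9.66 to 10.11. The difference was 0.078 (95% interval -0.091 to 0.25, limma adjusted p = 0.693), and it was 0.030 without water animal 18. It was -0.16 in the first run and 0.35 in the second, so the sign was not the same across the arrays. A further Nlgn2 probe set lay below the filter, at 6.01 in ethanol and 5.95 in water animals. It did not follow the main Nlgn2 probe set among animals (r = -0.063, permutation p = 0.833).

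The genes of GABA synthesis and vesicle loading were slightly higher in ethanol animals, within the spread of the animals. Gad1, which encodes the decarboxylase GAD67 that supplies most GABA of the cell body, was at 14.26, 14.36 and 14.44 (lowest, median and highest) in ethanol animals, against 14.04, 14.34 and 14.44 in water animals. Its difference was 0.053 (95% interval -0.039 to 0.14, limma adjusted p = 0.616), and 0.022 without water animal 18. The SD was 0.054 in ethanol animals and 0.118 in water animals, and 0.073 in water animals without that animal.

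Gad2 encodes GAD65, the form concentrated at nerve terminals. Its values ran from 11.86 through 12.17 to 12.45 in ethanol animals, against 11.61, 12.06 and 12.45 in water animals, with the groups overlapping over most of their range. The difference was 0.15 (95% interval -0.047 to 0.34, limma adjusted p = 0.495), with 0.070, 0.13 and 0.34 in the 3 runs. Slc32a1 encodes the vesicular GABA transporter VGAT, which loads GABA and glycine. Its values were 12.12, 12.29 and 12.66 in ethanol animals, against 11.85, 12.24 and 12.43 in water animals. The difference was 0.11 (95% interval -0.036 to 0.26, limma adjusted p = 0.495), and 0.072 without water animal 18. Differences of Gad2 above 0.34 and of Slc32a1 above 0.26 on the log2 scale lie outside these intervals.

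Gad1 has an additional probe set whose mean lay just under the filter, and it was read from the fit without a filter. It was at 6.99, 7.19 and 7.91 in ethanol animals and 6.63, 7.002 and 7.39 in water animals. All 10 ethanol animals were above the water mean, 4 of them above the highest water animal, and the difference was 0.29 (SE 0.12, limma adjusted p = 0.408 in the fit without a filter). This probe set did not follow the main Gad1 probe set among animals (r = 0.20, permutation p = 0.423).

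Abat encodes GABA transaminase, the mitochondrial enzyme that breaks GABA down, and its 3 probe sets did not share a direction. The main probe set was at 8.91, 9.10 and 9.53 in ethanol animals, against 8.93, 9.07 and 9.36 in water animals, a difference of 0.077 (95% interval -0.059 to 0.21, limma adjusted p = 0.622). The others differed by -0.12 and 0.089. Without ethanol animal 9, the highest of all, the main difference was 0.036.

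Slc12a5 encodes KCC2, the neuronal chloride exporter. Its values were 13.72, 13.84 and 13.90 in ethanol animals, against 13.44, 13.71 and 13.88 in water animals, so the ethanol animals lay in the upper part of the water range. Every ethanol animal was above the water mean. The difference was 0.13 (SE 0.046), or 1.09-fold with a 95% interval of 1.02 to 1.17, and the limma adjusted p was 0.313. It was 0.087, 0.22 and 0.022 in the 3 runs and 0.097 without water animal 18.

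Slc12a2 encodes NKCC1, the chloride importer, which in the mature brain is also found in glia and choroid plexus. It was the only one of the 10 genes with a lower ethanol mean, with values of 12.09, 12.60 and 13.09 in ethanol animals and 12.43, 12.76 and 13.70 in water animals. The difference was -0.29 (SE 0.15), or 0.817-fold with a 95% interval of 0.660 to 1.01 (limma adjusted p = 0.406). By run it was -0.22 (first), -0.60 (second) and 0.18 (last), which holds 2 animals per group, and -0.20 without water animal 18.

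Taken within each animal, the log2 value of Slc12a5 minus that of Slc12a2 was 0.758, 1.20 and 1.75 in ethanol animals (lowest, median and highest), against -0.27, 0.949 and 1.35 in water animals. This difference has no absolute meaning, since it sets 1 probe set against another, and only its change between animals can be read. It averaged 1.21 ± 0.33 (SD) with ethanol and 0.795 ± 0.489 (SD) with water, n = 10 each, and 9 of 10 ethanol animals were above the water mean. The gap between the groups was 0.418 (SE 0.186) with all animals and 0.300 without water animal 18. This gap combines the Slc12a5 and Slc12a2 differences given above, was not among the planned results and was not tested. By run it was 0.305 (first), 0.819 (second) and -0.16 (last), and with the myelin score, described below, as a covariate it was 0.16 (SE 0.13).

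The GABA-B receptor is an obligate pair of Gabbr1, which binds GABA, and Gabbr2, which carries the receptor to the surface and couples to G proteins. Gabbr1 was at 13.15, 13.28 and 13.38 in ethanol animals, against 12.90, 13.22 and 13.33 in water animals. The difference was 0.091 (95% interval -0.013 to 0.19, limma adjusted p = 0.436), and 0.059 without water animal 15, the lowest of all. Its 4 other probe sets, of which 3 passed the filter, differed by -0.040, 0.17, 0.054 and -0.0068. Gabbr2 was at 11.21, 11.68 and 12.16 in ethanol animals and 11.07, 11.64 and 12.23 in water animals, and the groups covered the same range. Its difference was 0.0070 (95% interval -0.26 to 0.27, limma adjusted p = 0.989), which leaves room for a change of up to 1.21-fold, and its sign turned when single animals were left out. Its probe set below the filter, at 5.70 and 5.51, differed by 0.19 (SE 0.081, limma adjusted p = 0.428 without a filter).

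**Figure D2:**
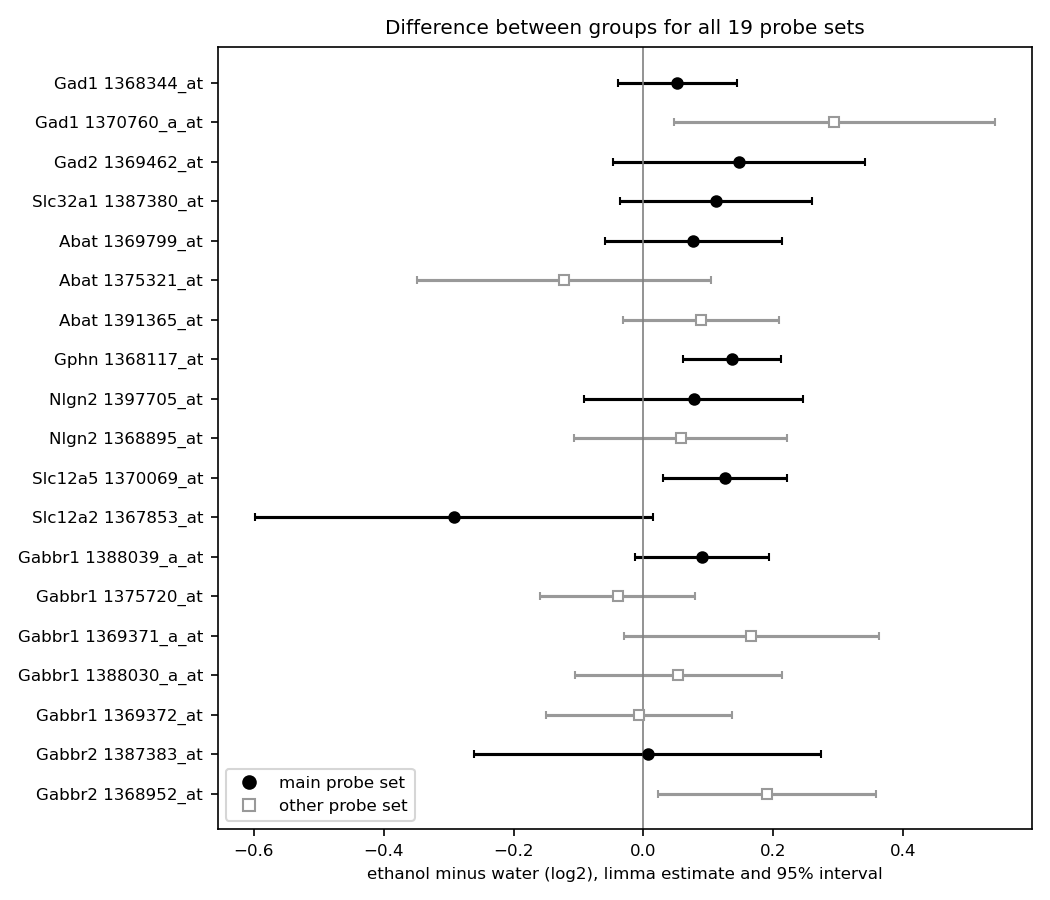
Difference between ethanol and water animals on the log2 scale (horizontal axis) for all 19 probe sets of the 10 genes, with limma 95% intervals. Black circles are main probe sets and open grey squares the others. Among main probe sets the intervals of Gphn (0.061 to 0.21) and Slc12a5 (0.030 to 0.22) lie above 0, and that of Slc12a2 reaches furthest below it.

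Scores of other cell types differed between the groups beside these genes, and the part of some of them in the differences was examined only with the score as a covariate. For pan-neuronal markers it averaged 12.33 ± 0.105 (SD) with ethanol and 12.22 ± 0.116 (SD) with water, n = 10 each, and all 15 listed genes were tested and had a higher ethanol mean, none of them called. The myelin score was 12.08 ± 0.479 and 12.42 ± 0.398, with a lower ethanol mean in all 13 tested markers, none called, and the choroid plexus score was 7.77 ± 1.49 and 9.19 ± 1.68. The astrocyte score was 12.43 ± 0.092 and 12.55 ± 0.090, with a lower ethanol mean in 8 of 9 tested markers, none called. Neither the astrocyte nor the choroid plexus score was used as a covariate. In tissue of mixed cell types fewer cells of a type and less RNA per cell cannot be told apart. With the pan-neuronal score as a covariate the differences of Gad1, Slc32a1 and Abat were near 0 (0.0072, 0.0081 and -0.0066) and that of Gad2 was 0.046. They were 0.101 for Gphn, 0.085 for Nlgn2, 0.090 for Slc12a5, -0.20 for Slc12a2, 0.093 for Gabbr1 and -0.12 for Gabbr2. This fit was not repeated without water animal 18, the lowest for the pan-neuronal score, Gad1 and Slc32a1. Without that animal the r of Gad1 with this score was 0.050 (0.48 with all), and that of Slc32a1 was 0.42 (0.61). With the myelin score the differences of Gad2 (0.21), Slc32a1 (0.13), Abat (0.15) and Gphn (0.16) were larger than without it. Those of Gad1 (0.036), Slc12a5 (0.078), Gabbr1 (0.074) and Slc12a2 (-0.083) were closer to 0. Nlgn2 (-0.017) and Gabbr2 (-0.13) turned in sign, and no gene was called with either score.

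Among animals within groups, Gad1, Gad2, Slc32a1 and Abat had positive correlations with each other, and Slc12a2 ran opposite to Gabbr2 and Nlgn2. Correlations were computed for all 45 pairs on values centred on their group mean over 20 animals, with two-sided permutation within groups and Benjamini-Hochberg adjustment over the 45 pairs. Of these, 6 pairs passed by Pearson's r, 4 positive and 2 negative, and 15 had an unadjusted permutation p under 0.05. By Spearman's rho 3 pairs passed, all among the 6. The share of pairs of other genes that would pass was not computed. These counts therefore cannot show whether such relations are more frequent here than among other genes. Values by run are given for the first and second run, since the last holds 4 arrays. In the last run 1 of the 6 pairs, Nlgn2 with Slc12a5, had the opposite sign (r = -0.80). The count rests on 1 array, since without water animal 18 the number of pairs that passed was 0. The median r of the 45 pairs was 0.11 (0.021 without that animal), against 0.020 over all pairs of the 10149 other genes tested. The SE of this median from leaving out each animal (jackknife) was 0.20, wider than its gap to 0.020. With cyclic loess the median was 0.0022.

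Positive pairs among the genes of GABA synthesis, loading and breakdown were Gad1 with Slc32a1, Gad2 with Slc32a1 and Gad2 with Abat. Gad1 and Slc32a1 correlated at r = 0.69 (permutation p = 0.00111, adjusted 0.0250) and rho = 0.63 (permutation p = 0.00333, adjusted 0.04995). The r was 0.41 within ethanol animals and 0.89 within water animals. By run it was 0.24 (first) and 0.88 (second), and it was 0.43 without the 2 animals farthest from the Gad1 median, and 0.50 without water animal 18 (adjusted permutation p = 0.110).

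Gad2 and Slc32a1 correlated at r = 0.66 (permutation p = 0.00226, adjusted 0.0254) and rho = 0.68 (permutation p = 0.00143, adjusted 0.04995). Here r was 0.53 in ethanol and 0.77 in water animals, 0.54 (first) and 0.87 (second) by run, 0.54 without the 2 farthest animals and 0.54 without water animal 18 (adjusted permutation p = 0.0993). The call also ended without ethanol animal 3.

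Gad2 and Abat correlated at r = 0.61 (permutation p = 0.00441, adjusted 0.0331) and rho = 0.60 (permutation p = 0.00753, adjusted 0.0678). The r was 0.69 in ethanol and 0.58 in water animals, 0.81 (first) and 0.57 (second) by run, 0.59 without the 2 farthest animals and 0.63 without water animal 18 (adjusted permutation p = 0.0675). The call also ended without ethanol animal 3 or 9 or water animal 15. It rests on the main Abat probe set, since the 2 others, both past the filter, had an r of -0.30 and -0.32 with it among animals. Both forms of the decarboxylase, Gad1 and Gad2, correlated at 0.52 (rho 0.42, permutation p = 0.0369 and 0.0781, adjusted 0.123 and 0.238), and at 0.16 without the 2 farthest animals.

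Slc12a2 and Gabbr2 correlated at r = -0.74 (permutation p = 0.00034, adjusted 0.0153) and rho = -0.64 (permutation p = 0.00319, adjusted 0.04995). It was -0.65 in ethanol and -0.81 in water animals, -0.46 (first) and -0.70 (second) by run, -0.56 without the 2 farthest animals and -0.65 without water animal 18 (adjusted permutation p = 0.0675). Animals with more Slc12a2 signal thus had less Gabbr2 signal in both groups.

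Slc12a2 and Nlgn2 correlated at r = -0.65 (permutation p = 0.00289, adjusted 0.0260) and rho = -0.61 (permutation p = 0.00605, adjusted 0.0678). The r was -0.61 in ethanol and -0.69 in water animals, -0.68 (first) and -0.73 (second) by run, -0.50 without the 2 farthest animals and -0.48 without water animal 18. The call also ended without ethanol animal 1 or 6. Nlgn2 and Slc12a5 correlated at r = 0.72 (permutation p = 0.00221, adjusted 0.0254) and rho = 0.47 (permutation p = 0.0457, adjusted 0.222), with 0.34 in ethanol and 0.81 in water animals. That relation was 0.69 (first) and 0.75 (second) by run, 0.36 without the 2 farthest animals and 0.56 without water animal 18, and the call also ended without water animal 15.

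The chloride transporters Slc12a5 and Slc12a2 correlated at r = -0.55 (permutation p = 0.0188, adjusted 0.110) and rho = -0.39 (permutation p = 0.0891, adjusted 0.238). The r was 0.17 in ethanol and -0.85 in water animals, a contrast that was not tested, and -0.030 without the 2 animals farthest from the Slc12a5 median. The receptor partners Gabbr1 and Gabbr2 showed little relation, with r = 0.12 over 20 animals, and no other probe set of either gene followed its main one past the threshold. For Gabbr1 the r with the main probe set was 0.60, 0.19, 0.08 and -0.22, and for Gabbr2 it was 0.53 (lowest adjusted permutation p = 0.0885).

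**Figure D3:**
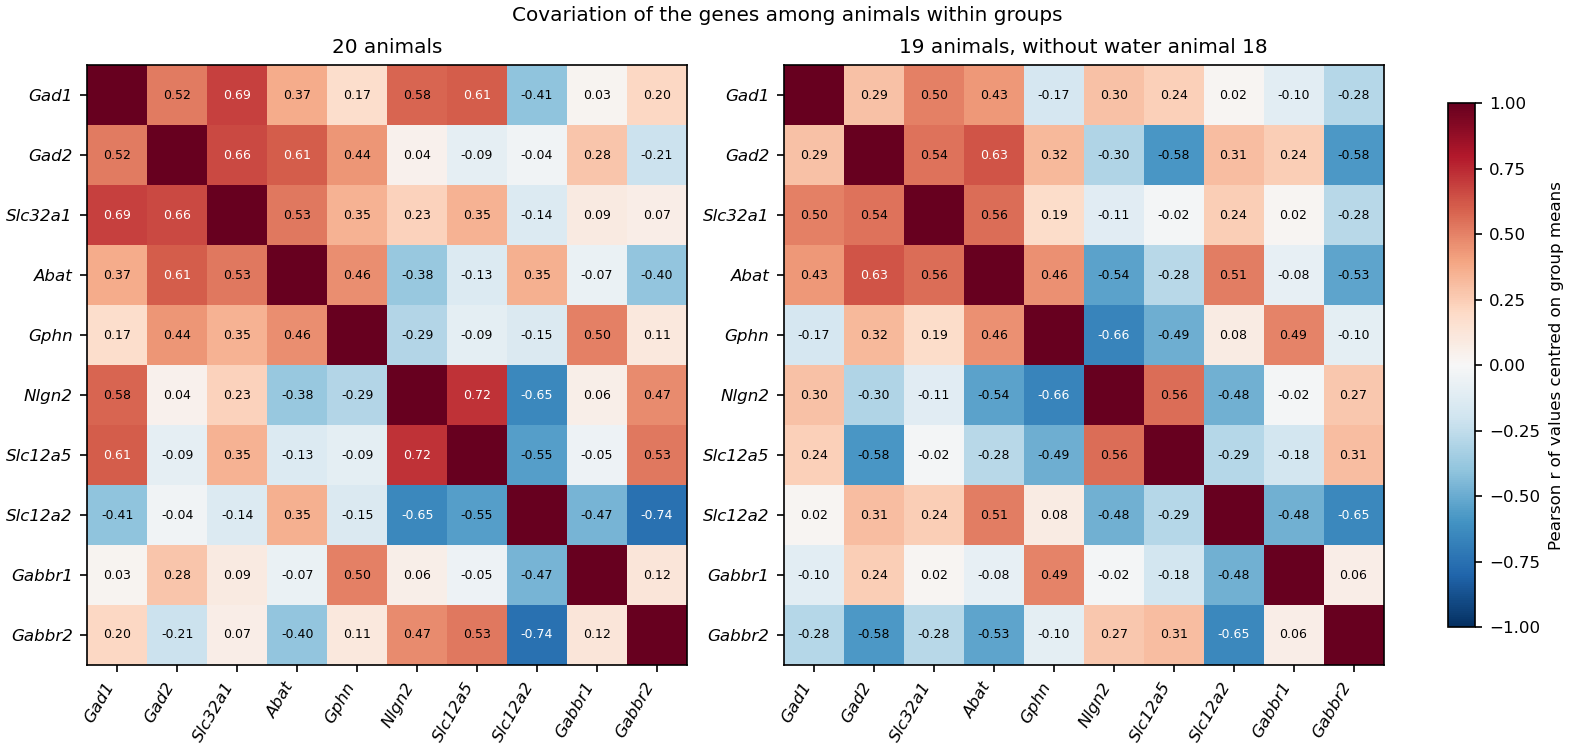
Pearson r between the 10 genes on values centred on group means, over 20 animals (left) and over 19 animals without water animal 18 (right). Red is positive and blue negative. The block of Gad1, Gad2, Slc32a1 and Abat stays red in both panels, while the r of Gad2 and Slc12a5 is -0.09 on the left and -0.58 on the right.

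Slc12a2, Slc12a5 and Nlgn2 were related to the myelin score. Of 50 relations between the 10 genes and 5 cell type scores, 3 passed a permutation test within groups adjusted over the 50, and all 3 were with the oligodendrocyte and myelin score. By rho 5 passed, these 3 together with Abat against the myelin score and Slc32a1 against the excitatory score. Slc12a2 followed it at r = 0.75 (permutation p = 0.00017, adjusted 0.00850) and rho = 0.84, with 0.66 in ethanol and 0.87 in water animals. The r was 0.93 (first) and 0.38 (second) by run, 0.69 without the 2 animals farthest from the median score and 0.74 without water animal 18. No single animal ended this call, and r was 0.93 without the 3 arrays that stood apart.

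Slc12a5 and Nlgn2 ran against the same score, at r = -0.63 and -0.64 (each permutation adjusted p = 0.0212) and rho = -0.64 and -0.70. For Slc12a5 r was -0.46 in ethanol and -0.84 in water animals, and for Nlgn2 it was -0.70 and -0.69. In the first and second run the values were -0.36 and -0.77 for Slc12a5 and -0.82 and -0.60 for Nlgn2. Without water animal 18 both calls stood (-0.60 each), and both ended without water animal 15 (adjusted permutation p = 0.0793 each). Leaving out the arrays that stood apart gave an r of -0.49 for Slc12a5 and -0.51 for Nlgn2. With the myelin score removed from both genes, the r of Slc12a2 with Gabbr2 was -0.60, with Nlgn2 -0.32 and with Slc12a5 -0.15, against -0.74, -0.65 and -0.55 before.

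**Figure D4:**
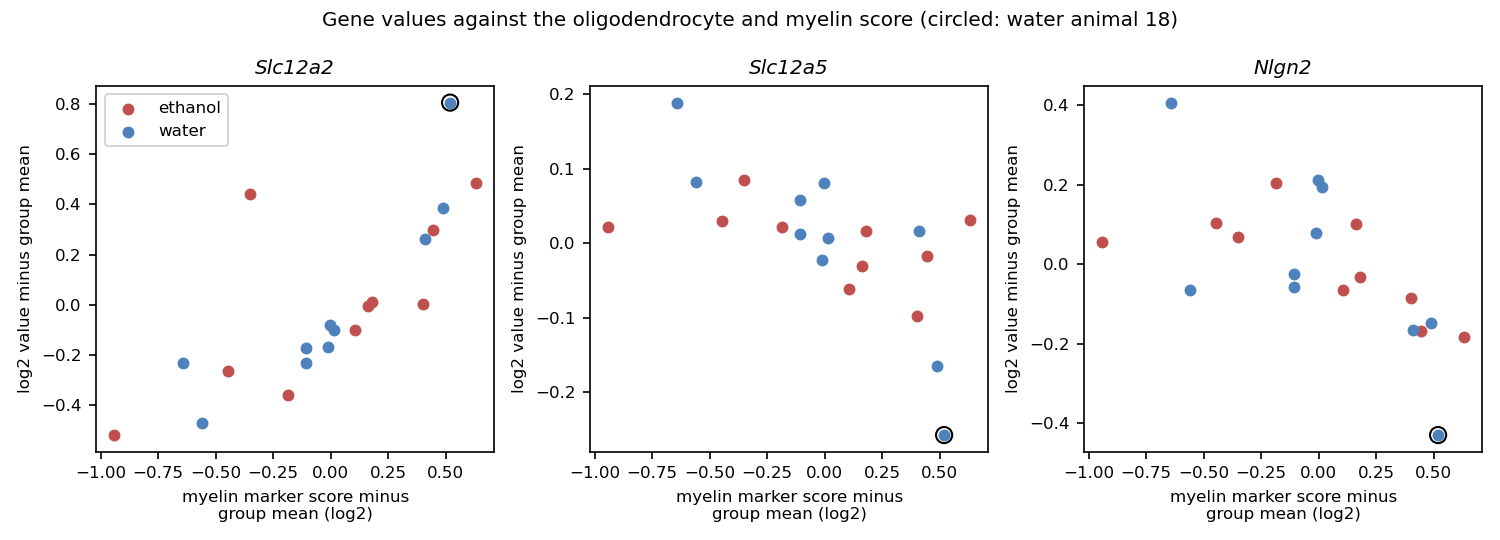
Log2 value of Slc12a2, Slc12a5 and Nlgn2 minus its group mean (vertical axes) against the oligodendrocyte and myelin score minus its group mean (horizontal axes), for 10 ethanol (red) and 10 water animals (blue), with water animal 18 circled. Slc12a2 is higher where the score is higher (r = 0.75), while Slc12a5 and Nlgn2 are lower (r = -0.63 and -0.64).

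Abat followed the myelin score at r = 0.60 (adjusted permutation p = 0.0634) and rho = 0.68 (adjusted permutation p = 0.0226), and its r passed without water animal 18 (0.67). For Gad1, Gad2 and Slc32a1 the r with that score was -0.23, 0.34 and 0.16, and for Gabbr2 it was -0.55 (adjusted permutation p = 0.0745). The score of excitatory cortical and basolateral neurons correlated with Gad2 at r = -0.58 (adjusted permutation p = 0.0745), with Slc32a1 at -0.57 (0.0634; rho -0.70, adjusted 0.0217) and with Abat at -0.52 (0.0868), and with Gabbr2 at 0.63 (0.0573). Without water animal 18 these were -0.70 for Gad2, -0.74 for Slc32a1 and 0.69 for Gabbr2, each past the threshold, and -0.53 for Abat. With the pan-neuronal score r was 0.61 for Slc32a1 (adjusted permutation p = 0.0634), 0.54 for Abat (0.086), 0.50 for Gphn, 0.48 for Gad1 and 0.44 for Gad2. None of these passed by r or by rho. Without water animal 18 they were 0.42 for Slc32a1, 0.59 for Abat, 0.38 for Gphn, 0.050 for Gad1 and 0.23 for Gad2. Nlgn2 and the pan-neuronal score had an r of -0.04 with all animals and -0.59 without that animal (adjusted permutation p = 0.0318). Slc12a5 and the astrocyte score had r = -0.45 (adjusted permutation p = 0.178) and rho = -0.58 (adjusted 0.0737). The choroid plexus score, added after seeing the data and adjusted over 60 relations, passed the permutation test with none of the 10 genes, and 2, Gad2 (r = -0.57) and Gabbr2 (r = -0.48), had an unadjusted permutation p under 0.05. For Slc12a2 its r was 0.42 (adjusted permutation p = 0.235), rho was 0.22 (adjusted 0.677), and r was 0.0063 without the 2 animals farthest from the median score. With the striatal and excitatory scores removed, Gad2 and Slc32a1 correlated at 0.50 and Gad1 and Slc32a1 at 0.74. With the pan-neuronal score removed instead, these were 0.54 and 0.57, and Gad2 and Abat correlated at 0.49.

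Genes whose group-centred values were most like those of each gene were taken from 10149 others, with no test since they were picked for their r over the 20 animals. Slc12a2 had the closest neighbours, Tmed10 (0.97), Rnf130 (0.96) and Syngr2 (0.96), and Gabbr2 was nearest to Brinp2 (0.94), Rimbp2 (0.91) and Ntrk3 (0.91). Slc32a1 was nearest to Coa3 (0.91), Klhl13 (0.87) and Prkaca (0.86), and Abat to Snhg4 (0.89), Pdcl3 (0.84) and Nefh (0.84). Nlgn2 was nearest to Rtf1, Src and Smarca4 (0.88 each), and Slc12a5 to Mcf2l, Ankrd34a and Fam241b (each 0.87). For Gphn they were B3galt6 (0.86), Sarnp (0.84) and Ywhaq (0.83), and for Gabbr1 Atp9a, Xpo1 (0.83 each) and Poldip3 (0.82). Gad1 (Rps6ka6 at 0.82, Cox10 and Itsn1 at 0.81) and Gad2 (Ttc33 at 0.78, Mfsd3 at 0.76 and Ndufb8 at 0.75) had the weakest neighbours. Without water animal 18 the r of Gad1 with Rps6ka6 was 0.60, while that of Slc12a2 with Tmed10 stayed at 0.96.

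The remaining genes of the pathway were likewise not called. Of the 19 GABA-A receptor subunits listed, 8 were tested and 6 had a higher ethanol mean, with the extrasynaptic subunit gene Gabrd at 0.23 (SE 0.15) and Gabrg1 at -0.17 (SE 0.14). Of the organisers of inhibitory synapses 13 of 21 were tested and 8 were higher. Insyn1, whose product binds gephyrin, was at 0.12 (SE 0.054, limma adjusted p = 0.360), and the neuroligin gene Nlgn3 was at 0.12 (SE 0.071). Of GABA uptake and glutamine supply 7 of 13 were tested and 3 were higher, with the glutamine transporters Slc38a3 at -0.18 (SE 0.12) and Slc38a2 at -0.096 (SE 0.088).

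Of the other cation-chloride transporters and their kinases 11 of 18 were tested and 6 had a lower ethanol mean. Oxsr1, a kinase that phosphorylates NKCC1 and KCC2, was at -0.25 (SE 0.096, limma adjusted p = 0.317), and Slc12a9 was at -0.069 (SE 0.042). Among partners and effectors of the GABA-B receptor 8 of 14 were tested and 5 were higher, with the G protein genes Gnao1 at 0.13 (SE 0.063) and Gnai2 at -0.079 (SE 0.039). For transcription factors of GABA neurons 5 of 11 were tested, with Dlx1 at -0.34 (SE 0.25) and Meis2 at 0.11 (SE 0.086). Listed genes without a tested probe set were not analysed here. The median differences of the 6 lists ran from -0.069 to 0.11, against 0.016 over all probe sets tested.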

How the data were processed

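Per the labels' protocols, biotin-labelled cRNA was made with the Affymetrix 3' IVT Express kit, and per the submitters' processing notes the authors used RMA (no version named). Their deposited numbers are log2 summaries of each probe set (3.82 to 16.2, array medians 7.92 to 7.97) for 31099 probe sets, of which 57 are controls. Depth has no meaning for arrays, and their number limits the precision. P-values measure the spread between animals as labelled.

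Genes were named from the platform annotation, with symbols checked by Entrez identifier against RefSeq (GRCr8), which changed 0. Probe sets were kept above the 40th percentile of the mean over all arrays, leaving 18625. The contrast of ethanol against water used limma 3.58.1 under R 4.3.3 (lmFit then eBayes), and two-sided p-values were adjusted by Benjamini-Hochberg with a threshold of 0.05. Permutation tests used 100000 resamples within groups (scipy 1.17.1 and numpy 2.4.6 under Python 3.11.15). Scripts were tested on simulated data.

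All 10 genes are named whatever their result. From each pathway list the genes past the threshold are named, or else the 2 with the smallest p, and for each of the 10 genes the 3 genes with the highest r. The 10 genes, the lists and the tests were chosen with earlier results of these data known. Arrays stand apart where their mean correlation lies over 3 scaled median absolute deviations below the median.

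Tried as alternatives were a filter at the 60th percentile or none, cyclic loess or median centring, trend and robust eBayes, weights for array quality, a block for the run, cell type scores as covariates, leaving out the arrays that stand apart and leaving out each animal. For the cell type scores, leaving out arrays and adding the choroid plexus score were chosen after seeing the data.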

Additional observations from a re-analysis of the deposited data

Results flagged for a closer look

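Among the 20 sets of 10 values (10 genes in each group), 1 animal lay far from its group. Gabbr1 in water animal 15 was at 12.90, with the next water animal at 13.10, a gap of 0.470 of the range of the group, above Dixon's 95% critical value. Chance marks about 1 set in 20. Without this animal the Gabbr1 difference was 0.059 (0.091 with it).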

How the results depend on the processing

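The count of the 10 genes past the threshold was 0 under all 31 alternatives and with all their probe sets, and the lowest limma adjusted p of any of them was 0.127 (Gphn, array quality weights). Of 310 differences, 297 kept their sign. The sign turned for Gabbr2 with cyclic loess (-0.016), the myelin score (-0.13) or the pan-neuronal score (-0.12) and in 8 left-out animals (range over all 20 from -0.061 to 0.068), for Nlgn2 with the myelin score (-0.017) and for Abat with the pan-neuronal score (-0.0066). The count of calls over all probe sets, 4 in the main setting, was 2 with the 60th percentile filter and 23 with array quality weights. It was 0 with the myelin score and 1 with the pan-neuronal or the striatal and excitatory scores. With single animals left out it was 1 to 8. The count of called pairs, 6 in the main setting, was 1 with cyclic loess and 12 with the striatal and excitatory scores. It was 1 without the arrays that stand apart, and 0 to 8 with single animals left out (0 without water animal 18). Each count was taken afresh over the 45 pairs, so the pairs counted need not be the same. Without the arrays that stand apart the strongest pair, Slc12a2 with Gabbr1 (r = -0.78), was not among the 6. The count of called relations to cell type scores, 3 in the main setting, was 7 without the arrays that stand apart. With single animals left out it was 1 to 8 (1 without water animal 15, 5 without ethanol animal 3 or 10, 6 without ethanol animal 5, 8 without water animal 18). These too were counted afresh, so the 7 need not hold the 3. Without the arrays that stand apart, Slc12a5 and Nlgn2 had r = -0.49 and -0.51 with the myelin score. Slc32a1 with the excitatory score, not among the 3, had -0.78 there. The cause of these shifts was not tested. No paired analysis was possible because the groups share no animal number.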
